A study of Mus musculus with 15 samples.

Results

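Filgotinib, an oral inhibitor that acts preferentially on the kinase JAK1, was compared with its vehicle in mice with repeated colitis from dextran sodium sulfate (DSS), a polysaccharide that injures the colonic epithelium when drunk. The comparison took the 5 DSS mice given filgotinib and the 5 DSS mice given vehicle, as their titles name them, which are 10 of the 15 samples of the series. All were female Balb/cJ mice aged 8 weeks. Both DSS groups received 3 cycles of 4% DSS, each lasting 4 days with washouts of 3 days, so every control of this comparison also carried DSS injury. Filgotinib was gavaged at 30 mg/kg once a day. The other 5 mice drank water without DSS; the labels call their compound a vehicle control whereas the design text names only drinking water, so their dosing is not settled. They are given for reference and share in the estimate of the spread. Each sample was 1 mouse and 1 single-colour Agilent array of 100 ng of RNA from the mucosa scraped off 30 mm of distal colon, a material that holds epithelium, immune cells and stroma together. In such bulk tissue, fewer cells of a type and less RNA per cell cannot be told apart.

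Many cytokine receptors carry no enzyme of their own and signal through Janus kinases bound to them. JAK1 serves the receptors for interferons, for cytokines that share gp130 such as IL-6 and IL-11, and for cytokines that share the common gamma chain. The kinases phosphorylate STAT factors, which enter the nucleus and switch on target genes, among them the SOCS and CISH inhibitors that close the loop. In colitis, STAT3 targets include acute-phase and barrier genes of the epithelium, and interferons induce the guanylate-binding proteins and many antiviral genes.

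All values below are log2 of the processed signal relative to the 75th percentile of the same array, so that a difference of 1 is a 2-fold change in signal. Levels of different probes cannot be ranked against each other. The share of probes well above background ran from 50.2% to 62.1% over the 15 arrays. The tissue label was checked with 11 markers of colonic epithelium, among them Epcam, Cdh1, Vil1, Krt8, Krt20, Cdx1, Cdx2, Car1, Slc26a3 and Muc2. All 11 were well above background on every array, and 0 of 11 were called different between the DSS groups by limma. Cdx1 alone of the 11 had an unadjusted p under 0.05, with a change of 0.25 (limma adjusted p = 0.0577). The mean of 17 pancreatic acinar genes stood apart in filgotinib mouse 4, at 3.15, against -3.38 to -1.42 in the other filgotinib mice, and in water mouse 1, at 2.01. Fibroblast and matrix genes varied widely within both DSS groups, from -1.48 to 1.09 in the vehicle mice and from -3.54 to 0.72 in the filgotinib mice.

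Filgotinib mice differed from vehicle mice at 2488 of 22012 genes tested, which is 11.3% (limma, Benjamini-Hochberg adjusted p under 0.05). Of these, 1491 were higher with filgotinib (6.77% of genes tested) and 997 were lower (4.53%). The change was at least 2-fold for 203 genes in each direction. The median change over all genes was 0.0012. For 1432 called genes the vehicle and filgotinib ranges were separate; over all genes tested, whatever their p, that held for 7.99%. The share of called genes that were higher was 59.9%, and it was 73.6% when arrays were centred on their median instead, a scaling that moved the median of all genes to 0.08.

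The arrays lay on 6 slides, and only 1 slide held both groups, with 3 vehicle and 2 filgotinib mice. With slide as a fixed block the counts were 234 higher and 203 lower, and with slide as a random block they were 1524 and 1010. Within that slide alone 2 genes were called higher and 1 lower, although 4398 genes had an unadjusted p under 0.05. Of the 90 called genes named by rule in the text, 87 lost their call within the slide and all 90 kept their sign. The arrays of this slide are among those that selected the genes. The kept signs were thus largely set in advance and cannot address the effect of slide. The counts also depended on single mice: without vehicle mouse 1 they were 790 and 526, without vehicle mouse 5 they were 889 and 682, without filgotinib mouse 2 they were 857 and 648, and without filgotinib mouse 5 they were 828 and 571.

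**Figure D1:**
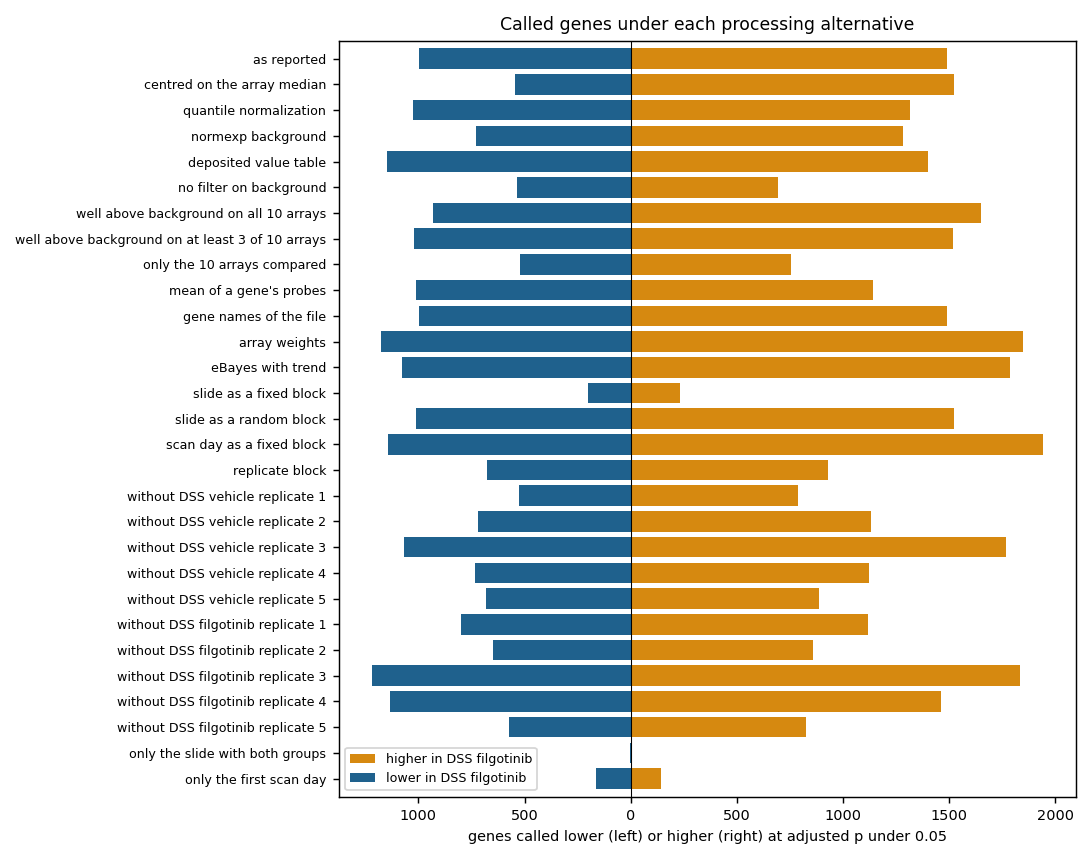
Number of genes called higher (right, orange) or lower (left, blue) in DSS filgotinib than in DSS vehicle at adjusted p under 0.05, for the fit as reported and for each processing alternative. The fit as reported calls 1491 higher and 997 lower; blocking on slide leaves 234 and 203, and leaving out vehicle mouse 1 leaves 790 and 526.

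Where vehicle and filgotinib ranges were separate, the largest falls under filgotinib were in genes of host defence, chemotaxis, interferon response and gut hormones. Saa3 encodes a serum amyloid A protein induced in inflamed epithelium and macrophages; its probe lies at chr7:53967559-53967618 on the minus strand of mm9. Its 5 vehicle mice read 0.23, -0.996, 1.76, 2.53 and 0.67, and its 5 filgotinib mice -3.15, -1.46, -3.10, -2.41 and -2.76. Every filgotinib mouse lay below every vehicle mouse, and the water mice lay between -3.70 and -2.69. The fall was 10.7-fold (log2 fold change -3.41 ± 0.54 SE, n = 5 and 5, limma adjusted p = 0.00252). Cxcl5, a chemokine that draws neutrophils through CXCR2, read -2.29, -2.75, -1.84, -2.32 and -2.36 in vehicle mice and -6.53, -3.90, -6.15, -4.87 and -6.10 in filgotinib mice. Only 1 of the 5 filgotinib arrays was well above background for Cxcl5, and no water array was. Its fitted log2 fold change was -3.20 ± 0.39 (limma adjusted p = 0.000575).

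The mucosal pentraxins Mptx1 and Mptx2, lectin-like proteins of the gut surface, fell by 3.10 ± 0.66 and 2.99 ± 0.61 on the log2 scale (limma adjusted p = 0.0101 and 0.00853). Both ran in parallel across mice: Mptx1 read 1.83, 1.23, 0.01, 2.95 and 2.33 in vehicle mice and -0.19, -0.03, -2.84, -0.74 and -3.34 in filgotinib mice. The lowest vehicle mouse and the highest filgotinib mouse differed by little. These are near-identical copies, and whether their probes bind each other's transcripts was not tested. Itln1, which encodes the microbe-binding lectin intelectin 1, fell 6.13-fold (log2 fold change -2.62 ± 0.38, limma adjusted p = 0.00157), from vehicle values between 0.01 and 1.68 to filgotinib values between -2.51 and -0.92. Its other probe changed by -0.96. Retnlb, the goblet cell cytokine resistin-like beta, fell 4.27-fold (limma adjusted p = 0.0062), from 1.21 to 2.27 in vehicle mice to -0.85 to 0.53 in filgotinib mice.

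Steap4, a metalloreductase of inflamed epithelium, read 0.14, -0.11, 0.32, -0.85 and -0.25 in vehicle mice and -2.31, -2.68, -3.64, -0.90 and -3.01 in filgotinib mice. Filgotinib mouse 4 was the highest of its group and lay just under the lowest vehicle mouse. The fall was 5.12-fold (log2 fold change -2.35 ± 0.42, limma adjusted p = 0.0046). Adgrf1, an adhesion G protein-coupled receptor, fell 4.09-fold (limma adjusted p = 0.000575), and its filgotinib mouse 4, at -0.51, was again above the other 4, at -1.93 to -1.58. The mast cell protease Mcpt1, the hormones Cck and Ghrl, and the interferon-induced Ifit2 complete the 12 largest falls and are described with their groups.

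The largest rise among such genes was in Gm5886, a predicted gene, which was well above background on 1 vehicle array and on all 5 filgotinib arrays. Its vehicle mice read -5.24, -5.29, -5.28, -4.02 and -5.34, and its filgotinib mice -2.53, -0.70, -1.03, -0.56 and -2.32. The fitted log2 fold change was 3.61 ± 0.43 (limma adjusted p = 0.000575). Smpx, a small protein known from muscle, rose 5.32-fold (log2 fold change 2.41 ± 0.35, limma adjusted p = 0.00156), with vehicle values from -4.96 to -2.99 and filgotinib values from -2.23 to -0.71. All 3 Smpx probes moved the same way, by 2.41 to 2.55. Slurp1, a secreted Ly6-family protein of epithelia, rose 4.96-fold (limma adjusted p = 0.00326), from between -3.07 and -1.53 to between -0.67 and 0.88, while the water mice lay between -1.94 and -0.09.

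Calcb, which encodes the neuropeptide beta-CGRP, rose 4.87-fold (limma adjusted p = 0.00461), with 3 of 5 vehicle arrays well above background. H2bc23, a histone H2B gene, rose 4.45-fold (log2 fold change 2.15 ± 0.37, limma adjusted p = 0.00418) and kept its call in each of 28 alternatives. Its vehicle mice read -2.19, -2.51, -1.26, -2.02 and -2.25 and its filgotinib mice 0.15, 0.16, -1.21, 0.52 and 0.90, so that filgotinib mouse 3 lay just above the highest vehicle mouse. Otc, the urea cycle enzyme ornithine transcarbamylase, rose 4.13-fold (limma adjusted p = 0.00112), and Slc30a10, a manganese exporter, rose 3.70-fold (limma adjusted p = 0.0131). Alb, Hpn, Gp2, Rgs13 and Gsta3 complete the 12 largest rises and are described with their groups.

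**Figure D2:**
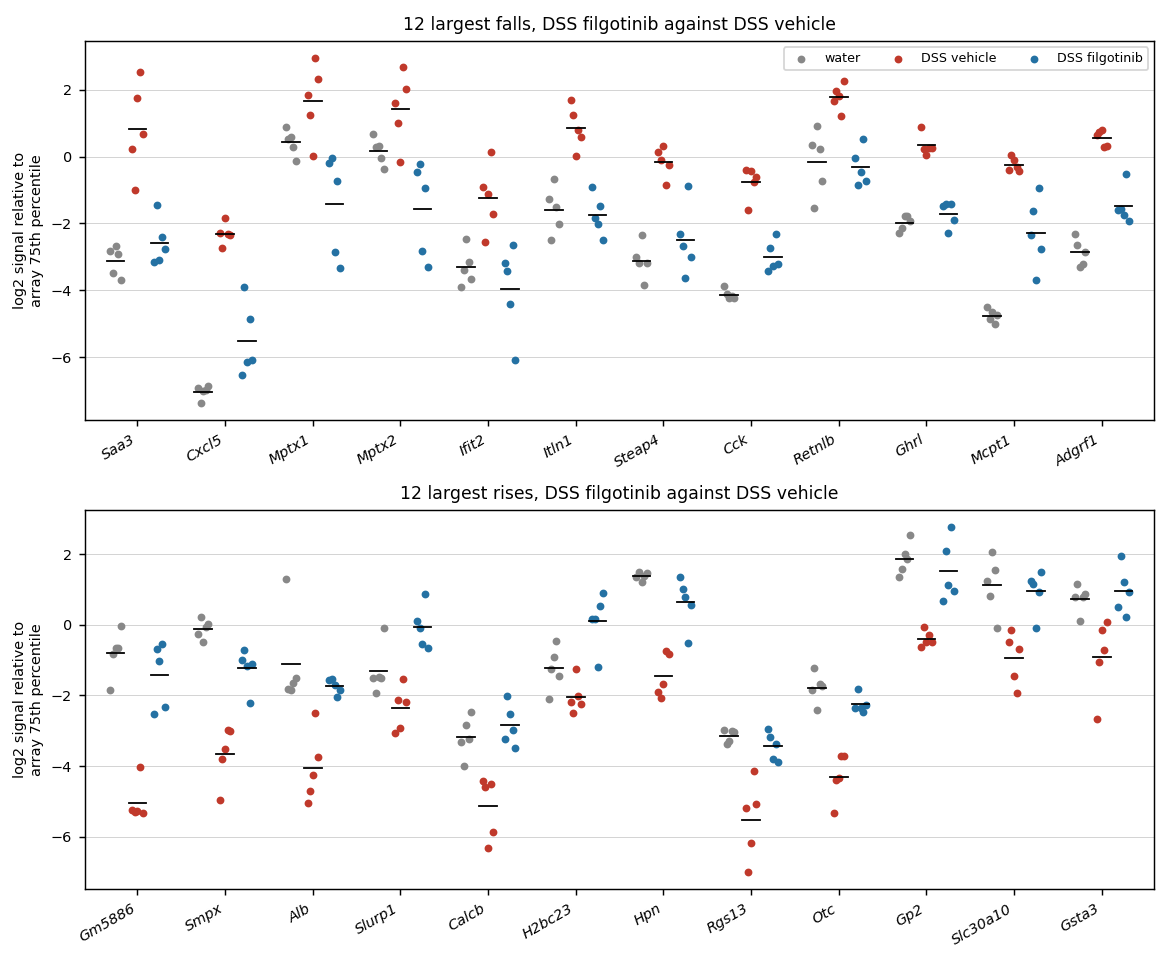
Signal of the 12 genes with the largest falls (top) and rises (bottom) under filgotinib, as log2 relative to the 75th percentile of each array, with 1 point per mouse and the group mean as a line (grey, water; red, DSS vehicle; blue, DSS filgotinib; n = 5 each). The genes were chosen for values that do not overlap between the DSS groups, so Saa3 runs from -0.996 to 2.53 with vehicle and from -3.15 to -1.46 with filgotinib.

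For some called genes 1 group gave no array well above background, so only a bound can be given. It sets the mean of the bright group against the lowest signal measurable on each array of the dim group. Atp13a4, a P5-type ATPase, was not well above background on any vehicle array and was on 4 of 5 filgotinib arrays, the exception being filgotinib mouse 4. It was at least 2.36-fold higher with filgotinib (limma adjusted p = 0.0059), and it was well above background on all 5 water arrays. Gal3st4, a sulfotransferase, was at least 2.27-fold higher with 4 of 5 filgotinib arrays well above background (limma adjusted p = 0.00509), Slc16a12, a transporter of creatine, at least 1.90-fold with 3 of 5 (limma adjusted p = 0.0116), and the non-coding Med9os at least 1.88-fold (limma adjusted p = 0.000975). In the other direction, 1700010I02Rik was at least 2.17-fold lower (limma adjusted p = 0.00278), Golga7b, which encodes a cofactor of protein palmitoylation, at least 2.11-fold (limma adjusted p = 0.00386) and Ctnnd2, a delta-catenin, at least 1.35-fold (limma adjusted p = 0.00332).

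Over all genes tested, 4.53% were called lower and 6.77% higher, and the list counts below are to be read against these shares. The lists were chosen with earlier results of these data known, so a difference from these shares may partly come from that choice. Of the JAKs, STATs and their inhibitors, 5 of 24 measured genes fell (20.8%) and 0 rose, with a list median of -0.15. Jak1, the kinase that filgotinib inhibits, was not called different: it read 3.88, 3.88, 3.72, 3.89 and 3.72 in vehicle mice and 4.06, 3.86, 3.84, 3.98 and 3.80 in filgotinib mice (log2 fold change 0.09 ± 0.07, limma adjusted p = 0.417). Tyk2, Stat5a and Stat6 lay between -0.09 and -0.08 and were not called either. Socs3, the inhibitor that STAT3 induces, fell the most. Its vehicle mice read 2.24, 2.29, 1.95, 1.60 and 2.79 and its filgotinib mice 0.20, 1.61, 0.47, 0.85 and -0.16, while the water mice lay between -0.49 and 0.11. Filgotinib mouse 2 stood as high as the lowest vehicle mouse, and the others were below all vehicle mice. The fall was 2.99-fold (log2 fold change -1.58 ± 0.29, limma adjusted p = 0.00491).

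The other 4 falls in the JAK and STAT list were smaller. Jak3, the partner kinase of the common gamma chain, fell by 0.48 (limma adjusted p = 0.0152) with values that did not overlap, although its 3 probes ranged from -0.48 to -0.01. Cish fell by 0.46 (limma adjusted p = 0.0375), Socs5 by 0.30 (limma adjusted p = 0.0317) and Stat3 by 0.29 (limma adjusted p = 0.0467). The Stat3 call was lost in 8 of the 10 fits that left out a mouse and the Cish call in 7. Jak2 changed by -0.26 ± 0.08 and did not pass (limma adjusted p = 0.0516). The list mean nonetheless separated the groups, with vehicle mice between 1.66 and 1.79 and filgotinib mice between 1.44 and 1.59. The count of 5 became 2 without vehicle mouse 1, vehicle mouse 5, filgotinib mouse 2 or filgotinib mouse 5, 3 without vehicle mouse 4 or filgotinib mouse 1, and 0 with slide as a fixed block.

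Cytokines that signal through JAKs were mostly too dim, with 8 of 28 genes on the array measured, and Il6 was not among them. Il11, a gp130 cytokine of stromal cells, fell 5.11-fold (log2 fold change -2.35 ± 0.52, limma adjusted p = 0.0128). It read -1.27, -3.03, -0.37, -0.31 and -0.36 in vehicle mice and -4.02, -1.76, -3.77, -3.67 and -3.88 in filgotinib mice, so the low vehicle mouse 2 and the high filgotinib mouse 2 crossed over. Il7, a survival factor for lymphocytes, fell by 0.53 (limma adjusted p = 0.0252), a call lost in 6 of the 10 fits that left out a mouse. These 2 falls were 25% of the list, against 4.53% of all genes. The count of 2 became 1 without vehicle mouse 1, vehicle mouse 5, or filgotinib mouse 1, 2 or 5, and 3 without filgotinib mouse 3.

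Of 33 receptor genes, 1 rose and 1 fell (3.03% each), below the 6.77% higher and 4.53% lower of all genes. Without filgotinib mouse 4 the counts were 2 and 3, and without filgotinib mouse 3 they were 0 and 2. Lifr, the receptor for leukaemia inhibitory factor, rose by 0.90 (limma adjusted p = 0.0324), and Ifnlr1, the receptor for interferon lambda, fell by 0.69 (limma adjusted p = 0.0239). Either call was lost when any of several single mice was left out, among them vehicle mice 1 and 5 and filgotinib mice 2 and 5 for both. Il6st, which encodes gp130, changed by -0.11 ± 0.27 and Osmr by -0.91 ± 0.60, neither called (limma adjusted p = 0.822 and 0.341).

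**Figure D3:**
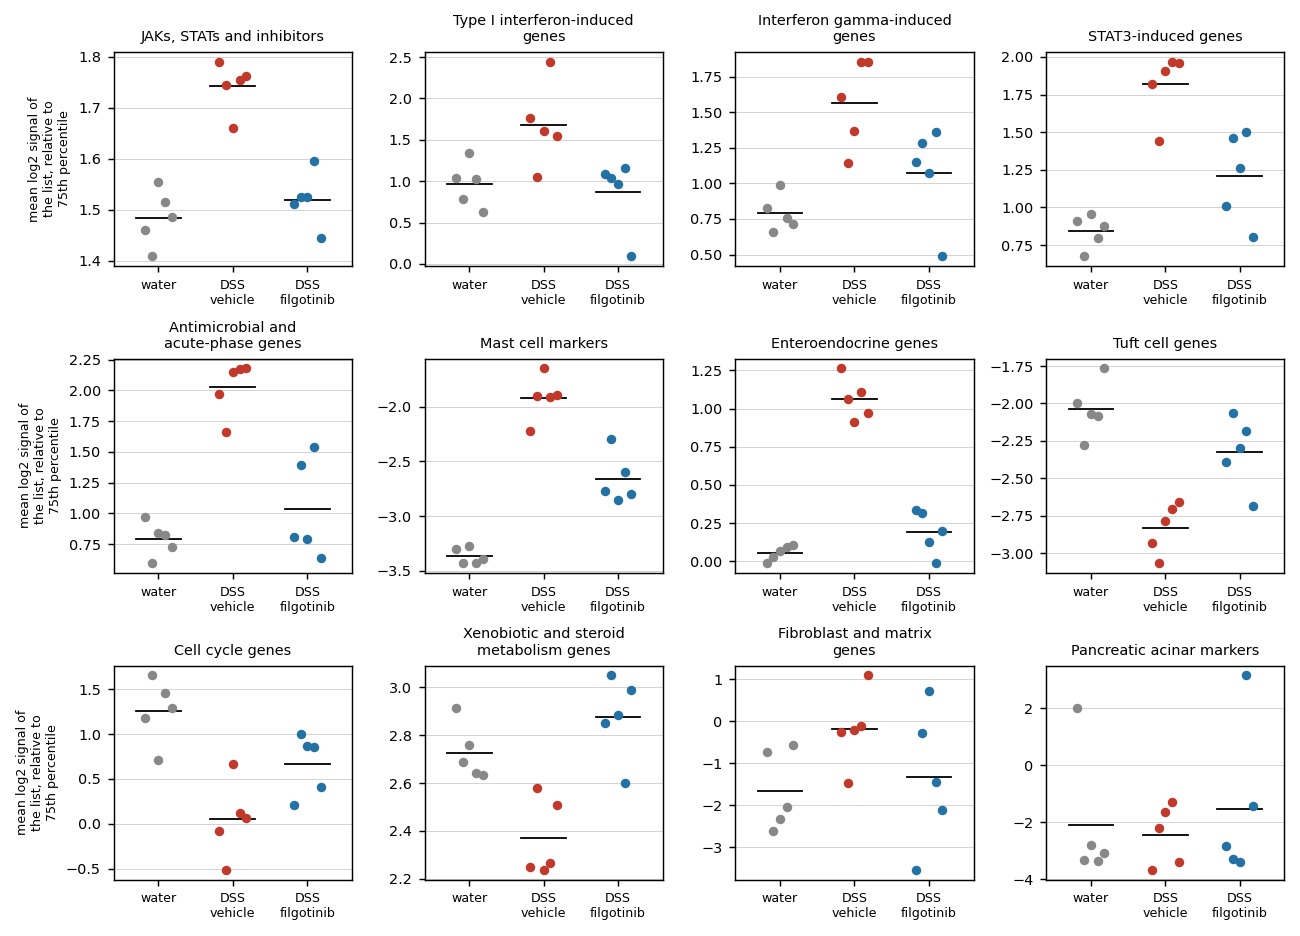
Mean log2 signal of 12 gene lists in each mouse, relative to the 75th percentile of its array, with the group mean as a line (n = 5 each; vertical scales differ between panels). Vehicle and filgotinib mice do not overlap for JAKs and STATs, antimicrobial, mast cell, enteroendocrine and xenobiotic genes. The mast cell mean includes Mcpt2, which was not well above background on any filgotinib array. The fibroblast panel shows the wide spread, and the pancreatic panel shows filgotinib mouse 4 at 3.15 and water mouse 1 at 2.01.

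Interferon-induced genes were called lower more often than higher. Of 36 measured type I interferon-induced genes, 12 fell and 1 rose, and 33 had a fitted change below 0, with a list median of -0.66. Of 30 interferon gamma-induced genes, 7 fell and 1 rose, with a median of -0.51. The mean over each list overlapped between the groups. The background shares were 4.53% lower and 6.77% higher. Many of these genes carry an interferon-stimulated response element before their start, which interferon-activated STAT complexes and interferon regulatory factors bind. Its core was searched on both strands as GAAA, any 2 bases and GAAA. The matches in the reference promoters of 6 called members are shown in capitals with the strand of the gene (RefSeq, GRCm38.p6). Flanks are 20 bases, except after the Irgm1 match, where the window ends earlier at the start of the gene. Gbp2b and Ifit3b held matches as well.
Ifit3 (chr19:34583353-34583436, plus strand): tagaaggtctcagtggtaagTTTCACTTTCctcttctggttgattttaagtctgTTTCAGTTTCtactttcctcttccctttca
Gbp3 (chr3:142559979-142560034, plus strand): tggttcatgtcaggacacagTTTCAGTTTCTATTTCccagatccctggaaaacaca
Gbp7 (chr3:142530263-142530312, plus strand): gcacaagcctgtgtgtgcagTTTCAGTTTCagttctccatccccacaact
Gbp2 (chr3:142620584-142620633, plus strand): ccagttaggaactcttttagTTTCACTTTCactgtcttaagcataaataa
Irgm2 (chr11:58214893-58214942, plus strand): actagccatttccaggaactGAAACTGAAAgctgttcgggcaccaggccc
Irgm1 (chr11:48871421-48871470, minus strand): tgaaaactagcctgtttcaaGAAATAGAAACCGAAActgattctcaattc
In Ifit3 the 2 matches lie 113 to 156 bases before the start, and in Gbp3 the 2 overlapping matches lie 30 to 45 bases before it. In Gbp3 and Irgm1 the capitals run on because matches overlap.

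The letters occurred within 250 bases before the start of 3.46% of 27025 genes with a promoter in the reference table and of 3.22% of the 12781 tested genes that had one. Among genes that fell, 31 of 562 promoters held them (5.52%), and among genes that rose 21 of 1043 (2.01%). Of the interferon gamma-induced genes with a promoter in the table, 6 of the 7 that fell and 4 of the 14 that did not fall held a match. Of the type I interferon-induced genes, 2 of 8 that fell and 8 of 18 that did not fall held one. A match is a description of these letters in this window only.

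Ifit2, which encodes a protein that binds viral RNA, fell the most of the type I list. It read -0.91, -2.57, -1.11, 0.13 and -1.72 in vehicle mice and -3.19, -3.43, -4.41, -2.64 and -6.08 in filgotinib mice. The groups came close at vehicle mouse 2 and filgotinib mouse 4, and filgotinib mouse 5 was the lowest of all. The fall was 6.56-fold (log2 fold change -2.71 ± 0.60, limma adjusted p = 0.0121). Ifi44 fell by 2.54 ± 0.61 (limma adjusted p = 0.0186), and Mx2, a dynamin-like antiviral GTPase, by 1.79 ± 0.53 (limma adjusted p = 0.0448), with values that overlapped between groups. The Mx2 call was lost in 7 of the 10 fits that left out a mouse. Isg20, an exonuclease, was the exception that rose, by 0.50 ± 0.11 (limma adjusted p = 0.0104).

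Across the type I list, filgotinib mouse 5 had a mean of 0.09, against 0.96 to 1.16 in the other filgotinib mice, and vehicle mice ranged from 1.05 to 2.45. Without filgotinib mouse 5, 8 genes fell, and with slide as a fixed block 2 did, while the list median within the slide that held both groups was -0.70. Water mice had list means of 0.62 to 1.34.

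The guanylate-binding proteins Gbp3 and Gbp7, GTPases that attack intracellular microbes, fell 2.38-fold and 2.11-fold (limma adjusted p = 0.0186 and 0.00627). Gbp7 read -0.52, -0.84, -1.01, -0.67 and -0.50 in vehicle mice and -1.43, -1.78, -1.43, -1.55 and -2.74 in filgotinib mice, without overlap. Irgm1 and Irgm2, immunity-related GTPases, fell by 0.80 and 0.99 on the log2 scale (limma adjusted p = 0.0101 and 0.0138). Gbp genes lie in a cluster of similar copies, and whether probes bind more than 1 of them was not tested. Ubd, a ubiquitin-like modifier, rose 2.20-fold without overlap (limma adjusted p = 0.0128). Ido1, the tryptophan-degrading enzyme, was not called: vehicle mice read 2.58, 1.08, 1.79, 2.83 and 2.58 and filgotinib mice 2.81, 2.92, -0.21, 3.64 and 0.02, so that filgotinib mice 2 and 4 were above the vehicle range and filgotinib mice 3 and 5 below it (limma adjusted p = 0.784). Cxcl10 was not called either (log2 fold change -0.63 ± 0.45, limma adjusted p = 0.381). With slide as a fixed block 1 gene of this list fell, and the list median within the shared slide was -0.63.

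STAT3-induced genes fell in 6 of 24 cases (25%, against 4.53% of all genes) and rose in 0, with a median of -0.38. Of the 24, 10 had an unadjusted p under 0.05 in the downward direction. Saa3 and Steap4 led and are given above. STAT factors bind the letters TTCNNNGAA, which read the same on both strands and which 8.13% of the reference promoters hold within 250 bases before the start. The promoters of Socs3 and Steap4 each hold 1 match, in capitals. They are shown because no other called member of either list with a promoter in the table held one. The table had promoters for 5 of the 6 called STAT3-list genes and for 4 of the 5 called genes of the JAK and STAT list.
Socs3 (chr11:117969492-117969540, minus strand): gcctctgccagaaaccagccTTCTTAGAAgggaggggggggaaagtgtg
Steap4 (chr5:7960336-7960384, plus strand): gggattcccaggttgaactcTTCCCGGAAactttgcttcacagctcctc
These matches lie 146 to 154 and 108 to 116 bases before the start. Among all genes that fell, 5.52% held the letters, and among those that rose 6.33%, against 7.33% of the tested genes with a promoter. Fut2, a fucosyltransferase that STAT3 induces in gut epithelium, fell by 0.94 ± 0.17 (limma adjusted p = 0.00426); it read -0.50, -0.67, -1.13, -0.72 and -1.10 with vehicle and -2.08, -1.80, -1.85, -1.20 and -1.91 with filgotinib, without overlap. Tifa fell by 0.88 (limma adjusted p = 0.032), Pim1 by 0.58 (limma adjusted p = 0.0172) and Birc3 by 0.29 (limma adjusted p = 0.037). Blocking on slide left 1 fall in the list.

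Secreted antimicrobial and acute-phase genes fell in 9 of 30 cases (30%, against 4.53% of all genes) and rose in 0, with a median of -0.70. The list shares Saa3 with the STAT3 list and Itln1 and Retnlb with the type 2 list. Its mean separated the groups: vehicle mice lay between 1.66 and 2.18 and filgotinib mice at 0.80, 1.40, 0.79, 1.54 and 0.63, with filgotinib mice 2 and 4 the highest. Besides Saa3, Mptx1, Mptx2, Itln1 and Retnlb, the falls included S100a9, a subunit of calprotectin, by 3.12 ± 0.82 (limma adjusted p = 0.028) with 2 of 5 filgotinib arrays well above background. Its partner S100a8 changed by -1.68 ± 0.63 and did not pass (limma adjusted p = 0.0959). The S100a9 call was lost without vehicle mouse 1, vehicle mouse 5 or filgotinib mouse 1 (limma adjusted p = 0.0501 to 0.0618). Duox2, the hydrogen peroxide-producing oxidase of the epithelium, fell by 0.94 (limma adjusted p = 0.00368).

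Other acute-phase genes did not pass the test. Lcn2, an iron-sequestering protein used as a colitis marker, changed by -1.08 ± 0.40 (limma adjusted p = 0.093). Saa1 changed by -0.10 ± 0.13 (limma adjusted p = 0.673). The lectin Reg3g changed by 0.37 ± 0.79 (limma adjusted p = 0.798), with filgotinib mouse 4 at 0.89 and the other filgotinib mice between -3.85 and -0.76. Reg3b was not well above background on enough arrays to be tested. Blocking on slide left 1 fall in the antimicrobial list, and the list median within the shared slide was -0.79.

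Inflammatory cytokines and chemokines fell in 5 of 20 cases (25%) and rose in 2 (10%), against 4.53% and 6.77% of all genes. Besides Cxcl5, Ptgs2, the inducible cyclooxygenase, fell by 2.22 ± 0.65 (limma adjusted p = 0.043) with 1 of 5 filgotinib arrays well above background, Cxcl1, another neutrophil chemokine, by 1.35 ± 0.40 (limma adjusted p = 0.0431), Cxcl13, a B cell chemokine, by 1.32 (limma adjusted p = 0.0276) and Tnf by 0.34 ± 0.08 (limma adjusted p = 0.0224). Tnf values did not overlap, at -2.22 to -2.12 with vehicle and -2.64 to -2.42 with filgotinib, but its other probe changed by -1.74, so the size of its fall depends on the probe. Il33, an alarmin of epithelial and stromal nuclei, rose by 1.55 ± 0.44 (limma adjusted p = 0.0365) and Ccl20 by 0.80 (limma adjusted p = 0.043). Il1b changed by -1.49 ± 0.52 and did not pass (limma adjusted p = 0.0757). Calls in this list were fragile. Of the falls, 1 remained in number without vehicle mouse 1 or filgotinib mouse 1, 2 without vehicle mouse 4, vehicle mouse 5 or filgotinib mouse 5, 3 without vehicle mouse 3 or filgotinib mouse 4, and 0 with slide as a fixed block. The Ptgs2 and Cxcl1 calls were each lost in 8 of the 10 fits that left out a mouse, the Il33 call in 7, and the Tnf call without vehicle mouse 1 or filgotinib mouse 1. No gene of the list rose without vehicle mouse 1, 2 or 4 or filgotinib mouse 2 or 5, and 1 rose without vehicle mouse 3 or 5 or filgotinib mouse 1, 3 or 4.

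Il1rl1 encodes ST2, the receptor for IL-33, and was the largest fall of the type 2 immunity list. Of 13 measured genes of this list 3 fell (23.1%) and 1 rose (7.69%), against 4.53% and 6.77% of all genes. The list median was -0.0017. Il1rl1 read -0.67, -2.25, -0.10, 0.25 and -0.45 in vehicle mice and -6.57, -1.54, -2.72, -4.36 and -6.13 with filgotinib. Only 2 of 5 filgotinib arrays and 0 water arrays were well above background. The fitted log2 fold change was -3.62 ± 0.81 (limma adjusted p = 0.013), and its other probe changed by -2.25. Filgotinib mouse 2 was higher than vehicle mouse 2. The receptor thus fell while the Il33 probe rose in the same samples.

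Of 9 measured mast cell markers 4 fell (44.4%) and 1 rose (11.1%), against 4.53% and 6.77% of all genes. Mcpt2, a chymase of mucosal mast cells, read -3.79, -2.81, -2.61, -3.56 and -3.45 in vehicle mice and -6.51, -6.41, -6.69, -5.01 and -6.05 in filgotinib mice, of which none was well above background. It was at least 1.97-fold lower with filgotinib (limma adjusted p = 0.000218) and kept its call in the 26 alternatives that tested it. Mcpt1, a related chymase, fell 4.11-fold without overlap, from between -0.43 and 0.06 to between -3.70 and -0.94 (limma adjusted p = 0.00499), and Mcpt4 fell 4.01-fold (limma adjusted p = 0.00474). Hdc, the histamine-forming enzyme, fell by 0.82 (limma adjusted p = 0.02). Cma1, another chymase gene, rose by 1.66 ± 0.27 (limma adjusted p = 0.00295). The Mcpt genes are similar copies, and cross-binding of their probes was not tested. Cpa3, Tpsab1 and Ms4a2 were too dim to be tested. Without vehicle mouse 1, 2 genes rose, and with slide as a fixed block 1 of the 9 fell and 0 rose. Mcpt2 passed the background filter without any filgotinib array, so its fall is partly set by the filter. The list median was -0.65, but 0.10 over the markers well above background on every DSS array, which leave out Mcpt2.

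Few markers of other immune cells were called. Fitted changes lay below 0 for 17 of 18 macrophage and monocyte markers and 16 of 17 T and NK cell markers. They also did for 11 of 12 neutrophil markers and 8 of 13 B and plasma cell markers. The T and NK cell list had a median of -0.47, with 11.8% of it called lower, against 4.53% of all genes. None of 18 macrophage and monocyte markers and none of 13 B and plasma cell markers was called by limma, with 3 of 18 and 3 of 13 at an unadjusted p under 0.05. The macrophage list had a median of -0.50 and means that overlapped widely, from -0.48 to 0.98 in vehicle mice and from -1.38 to 0.58 in filgotinib mice. Without filgotinib mouse 4, 2 macrophage markers fell. Adgre1, which encodes a surface receptor of macrophages, changed by -1.19 ± 0.94 (limma adjusted p = 0.436). Of 17 markers of T and NK cells, the cytotoxic granule genes Gzma and Nkg7 fell by 0.92 and 0.82 (limma adjusted p = 0.0256 and 0.0186), and the Gzma call was lost without vehicle mouse 5 or filgotinib mouse 2 or 5. The count of 2 was 1 without vehicle mouse 5 or filgotinib mouse 5.

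Of 12 neutrophil markers S100a9 alone fell (8.33%, against 4.53% of all genes). The falls numbered 2 without vehicle mouse 3 or filgotinib mouse 2 and 3 without filgotinib mouse 4. There were 0 without the mice whose removal ends the S100a9 call. Of 9 MHC class II genes 1 fell (11.1%, against 4.53% of all genes). It was Ciita, their master regulator, which fell by 1.27 ± 0.37 (limma adjusted p = 0.0418), a call lost in 6 of the 10 fits that left out a mouse. Only 3 eosinophil markers were measured, too few to set against the 6.77% of all genes called higher. Of these Siglecf rose 2.15-fold, from between -3.79 and -3.10 to between -2.62 and -1.50 (limma adjusted p = 0.00746). Siglecf is also on the tuft cell list, while the defining eosinophil genes Epx, Prg2 and Ccr3 were too dim to be tested.

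The group with the most calls was that of enteroendocrine cells, the hormone-secreting cells of the gut epithelium. Of 28 measured genes 23 fell and 1 rose, against 4.53% and 6.77% of all genes, and the median change was -0.90. The list mean read 1.26, 1.06, 0.91, 1.11 and 0.97 in vehicle mice, 0.34, 0.32, 0.13, -0.01 and 0.20 in filgotinib mice and -0.01 to 0.11 in water mice. The DSS groups thus did not overlap, and filgotinib mice lay near the water mice on this scale. Leaving out any mouse of the DSS groups left 22 or 23 falls. With slide as a fixed block 11 fell and 1 rose, and the median within the shared slide was -0.73.

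Hormones led this list. Cck, cholecystokinin, read -0.40, -1.61, -0.44, -0.77 and -0.62 in vehicle mice and -3.43, -2.74, -3.27, -2.32 and -3.21 in filgotinib mice, a 4.69-fold fall (log2 fold change -2.23 ± 0.23, limma adjusted p = 0.000242). Ghrl, ghrelin, read 0.90, 0.21, 0.05, 0.24 and 0.26 against -1.48, -1.43, -2.28, -1.41 and -1.91, a 4.11-fold fall (limma adjusted p = 0.000116) seen with all 3 of its probes, at -2.71 to -1.95. Sct, secretin, read 5.55, 4.91, 4.68, 5.17 and 5.29 against 3.46, 3.19, 3.26, 3.36 and 3.52, a 3.39-fold fall (limma adjusted p = 0.000105). None of these 3 hormones overlapped between the groups, and each lost its call only when the fit was confined to the 5 arrays of the shared slide.

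Gcg, which encodes glucagon-like peptides, fell by 1.13 on the log2 scale, Pyy by 1.05, Sst by 1.02 and Insl5 by 0.93, each called by limma. The other Gcg probe changed by -0.07. The granule proteins Chga, Chgb, Scg2, Scg3 and Scg5, the processing enzymes Pcsk1 and Cpe, and the fate factors Neurod1, Nkx2-2, Fev, Insm1, Pax4 and Rfx6 fell as well. Neurog3, the factor that starts endocrine fate in crypt progenitors, rose by 0.81 ± 0.15 (limma adjusted p = 0.00536), with 1 vehicle array and 4 filgotinib arrays well above background. Tph1, which makes serotonin in enterochromaffin cells, and Pax6, Isl1 and Tac1 had fitted changes below 0 and did not pass.

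**Figure D4:**
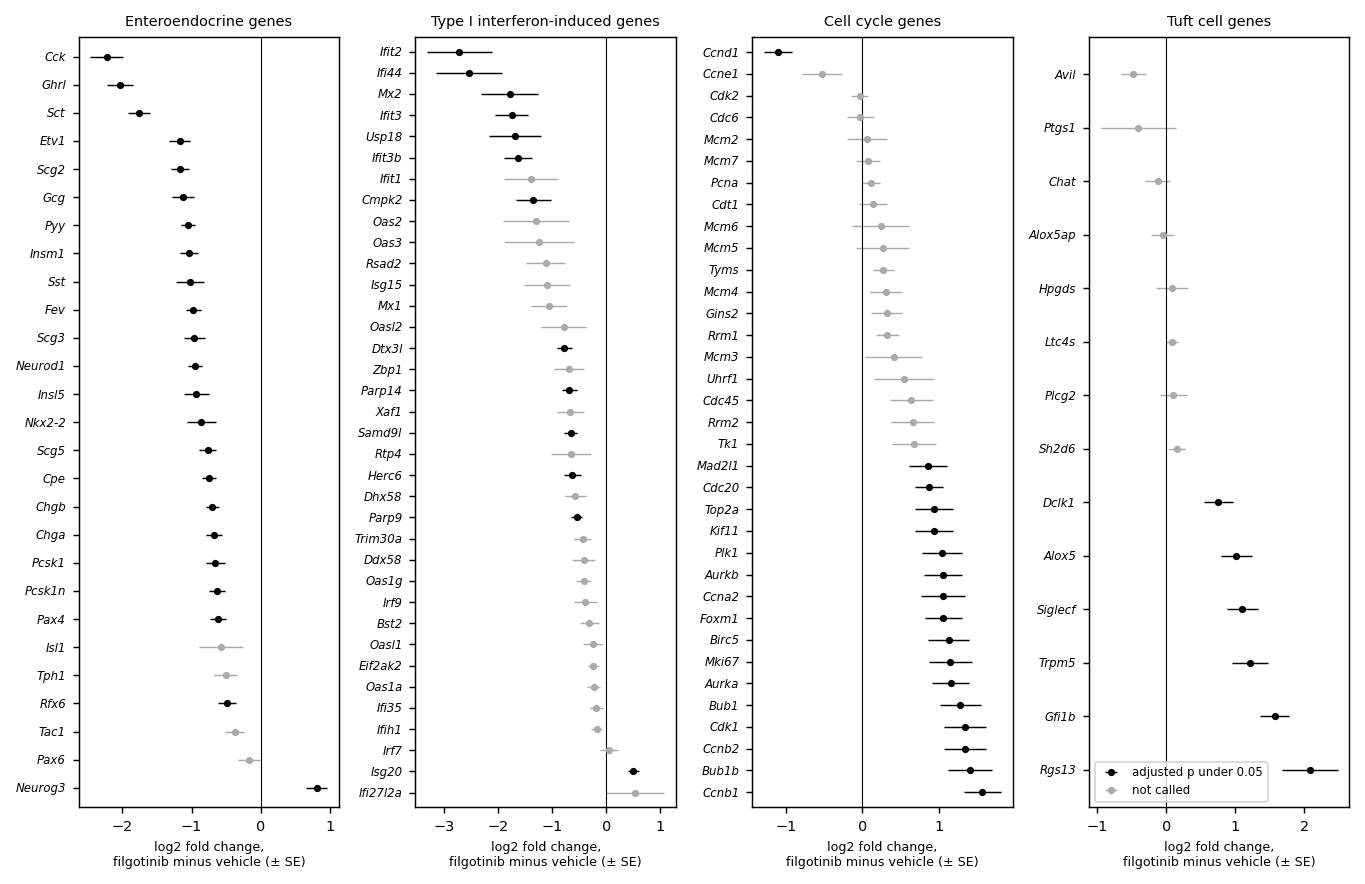
Log2 fold change, filgotinib minus vehicle, with its standard error for measured genes of 4 lists, with 1 enteroendocrine gene left out (n = 5 mice a group; black, adjusted p under 0.05; grey, not called). In the enteroendocrine panel most genes are called below 0 and Neurog3 above it; in the cell cycle panel the 16 called rises sit together at the bottom, and Ccnd1 is called below 0.

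Tuft cells, the chemosensory cells of the epithelium, moved the other way: 6 of 14 measured genes rose and 0 fell, although the list median was only 0.13. The rises were 42.9% of the list, against 6.77% of all genes. Rgs13, a regulator of G protein signalling, rose 4.23-fold (limma adjusted p = 0.00625), with 1 vehicle array and 4 filgotinib arrays well above background. Gfi1b, a transcription factor of tuft cells, was at least 1.80-fold higher (limma adjusted p = 0.00109) and the taste-pathway channel Trpm5 at least 1.25-fold higher (limma adjusted p = 0.0119), neither being well above background on any vehicle array. Alox5 rose by 1.01 and Dclk1 by 0.75, although the 3 probes of Dclk1 ranged from -0.45 to 0.75; Siglecf is given above. Pou2f3, the factor that defines tuft cells, was too dim to be tested, and with slide as a fixed block 3 genes rose.

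Of 35 cell cycle genes 16 rose (45.7%) and 1 fell (2.86%), against 6.77% and 4.53% of all genes, with a median of 0.66. Ccnb1, cyclin B1 of mitotic entry, read -0.42, -1.23, 0.17, -0.11 and -0.48 in vehicle mice and 0.61, 1.63, 1.38, 1.23 and 0.91 in filgotinib mice, a 2.97-fold rise without overlap (log2 fold change 1.57 ± 0.24, limma adjusted p = 0.00236). All 4 of its probes were higher, by 1.24 to 1.57. The spindle checkpoint kinase Bub1b rose 2.65-fold (limma adjusted p = 0.00848), Ccnb2 2.54-fold (limma adjusted p = 0.00794) and the proliferation marker Mki67 2.22-fold (limma adjusted p = 0.0186), each with vehicle mouse 3 reaching into the filgotinib range. The replication genes Pcna and Mcm2 to Mcm7 were not called. Ccnd1, the cyclin of entry into the cycle, fell 2.15-fold without overlap (limma adjusted p = 0.00356).

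The list mean of the cell cycle genes was 0.66 in vehicle mouse 3 and -0.51 to 0.12 in the other vehicle mice, against 0.21 to 1.00 in filgotinib mice and 0.71 to 1.65 in water mice. Without vehicle mouse 1, 10 genes rose and the Mki67 call was lost (limma adjusted p = 0.0509). With slide as a fixed block 2 rose, and the median within the shared slide was 0.58.

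Crypt stem cell and Wnt target genes were not called in any of 19 cases by limma, with 1 at an unadjusted p under 0.05. Lgr5, the receptor that marks colonic stem cells, was not well above background on any of the 10 DSS arrays, with or without filgotinib, and was on all 5 water arrays, at -1.74 to -0.88. Ascl2, the fate factor of these cells, changed by -0.09 ± 0.71 (limma adjusted p = 0.949); vehicle mice lay between -5.76 and -0.63, filgotinib mice between -4.21 and -2.37 and water mice between 1.90 and 2.47. Smoc2 changed by 1.33 ± 0.53 and did not pass (limma adjusted p = 0.119), with vehicle mouse 2 at -4.13 far below the others.

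Of 40 absorptive cell genes 3 rose (7.5%) and 1 fell (2.5%). Of 30 goblet cell genes 1 rose (3.33%) and 3 fell (10%). Over all genes these shares were 6.77% and 4.53%, so the absorptive counts lay near or below them. Guca2b, uroguanylin, rose by 0.74 ± 0.16 (limma adjusted p = 0.0123) without overlap, and the cytochrome Cyp2c55 by 0.74 ± 0.18 (limma adjusted p = 0.0195), a call lost without filgotinib mouse 5 (limma adjusted p = 0.0526). Muc4, a membrane mucin, rose 2.08-fold without overlap (limma adjusted p = 0.00295). The goblet falls were Retnlb, Capn9 and Tpsg1, of which 1 was left in number without vehicle mouse 1, 2, 4 or 5 or filgotinib mouse 1, 2 or 3. The absorptive fall, Emp1, is described with regenerating epithelium, and 4 absorptive genes fell without filgotinib mouse 4. Muc2, Slc26a3, Car4 and Aqp8 were not called, with fitted changes from -0.11 to 0.19. None of 24 tight junction genes was called by limma, with 4 at an unadjusted p under 0.05.

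Of 22 genes of regenerating epithelium 3 fell (13.6%) and 1 rose (4.55%), against 4.53% and 6.77% of all genes. Ly6a, which encodes Sca-1, a marker of repairing epithelium, fell 2.98-fold (limma adjusted p = 0.0159). Its vehicle mice read 6.02, 5.86, 5.12, 5.23 and 5.49 and its filgotinib mice 3.93, 4.14, 3.56, 5.34 and 2.86. Only filgotinib mouse 4 lay inside the vehicle range. Tm4sf4, a membrane protein gene, fell by 0.76 ± 0.11 without overlap (limma adjusted p = 0.00157). Emp1 fell by 1.20 (limma adjusted p = 0.0439), a call lost in 6 of the 10 fits that left out a mouse. The rise was that of Il33, described with the cytokines, whose call was lost without vehicle mouse 1, 2 or 4 or filgotinib mouse 1, 2, 3 or 5.

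Matrix metalloproteinases fell in 3 of 16 cases (18.8%, against 4.53% of all genes). Mmp10, stromelysin 2, read -1.17, -3.07, 0.31, 0.12 and -0.46 in vehicle mice and -6.63, -2.21, -5.68, -5.04 and -6.13 with filgotinib. Mmp13, collagenase 3, read -1.56, -3.88, -0.90, -0.98 and -1.38 against -6.60, -3.81, -5.71, -6.31 and -6.13. In both, filgotinib mouse 2 stood apart from the other filgotinib mice and vehicle mouse 2 from the other vehicle mice, and the ranges met there. Only 1 of 5 filgotinib arrays and 0 water arrays were well above background for either gene. Both thus passed the background filter mainly through the vehicle arrays, where they were high. The sizes of their falls rest partly on dim values. The fitted log2 fold changes were -4.29 ± 0.78 and -3.97 ± 0.63 (limma adjusted p = 0.00495 and 0.00267). Mmp14 fell by 0.50 (limma adjusted p = 0.0437), a call lost in 8 of the 10 fits that left out a mouse. Without filgotinib mouse 3, 5 genes of this list fell, and with slide as a fixed block 1 did.

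Of 28 fibroblast and matrix genes, 26 had a fitted change below 0 and the median was -1.15, but Fap alone fell, by 0.51 (limma adjusted p = 0.0367), a call lost in 7 of the 10 fits that left out a mouse. The median was -2.33 within the shared slide and -0.62 without filgotinib mouse 1. Without filgotinib mouse 3, 3 genes fell. None of 14 smooth muscle genes or 15 endothelial markers was called by limma, with 0 of 29 at an unadjusted p under 0.05. Both medians were -0.23, and became 0.12 for smooth muscle without vehicle mouse 1 and 0.05 for endothelium without vehicle mouse 5. The part of stromal content in the other changes was not tested.

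Of 9 measured genes of enteric neurons and glia, 3 fell (33.3%, against 4.53% of all genes) and 0 rose, with a list median of -0.24. Galr1, a galanin receptor, was at least 1.24-fold lower (limma adjusted p = 0.00195). Ret fell by 1.36 with 2 of 5 filgotinib arrays well above background (limma adjusted p = 0.00195). Uchl1 fell by 1.16 (limma adjusted p = 0.00143). The neuronal genes Vip and Nos1 and the glial genes S100b and Sox10 were too dim to be tested. Of 9 adipocyte markers Cidea alone fell (11.1%, against 4.53% of all genes), by 1.13 ± 0.20 (limma adjusted p = 0.00447). The list median was 0.06, and Adipoq and Plin1 were too dim to be tested.

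Of 17 pancreatic acinar markers Gp2, a glycoprotein also made by M cells, rose 3.76-fold without overlap, from between -0.64 and -0.06 to between 0.68 and 2.76 (limma adjusted p = 0.00473). It kept its call without filgotinib mouse 4. As the only call it made up 5.88% of the list, against 6.77% of all genes called higher. The list median was 0.89 and became -0.40 without filgotinib mouse 4, 0.47 without vehicle mouse 1 or 5, 1.47 without filgotinib mouse 2, 1.48 without filgotinib mouse 3 and -0.46 within the shared slide. Without vehicle mouse 3 or 5, 2 genes of the list rose. Of 14 hepatocyte markers 4 rose (28.6%, against 6.77% of all genes) and 0 fell. However, 8 of the 14 had a fitted change below 0, and the list median was -0.02. Alb, albumin, read -5.05, -4.70, -4.25, -2.49 and -3.75 in vehicle mice and -1.57, -1.52, -1.71, -2.04 and -1.83 in filgotinib mice (log2 fold change 2.31 ± 0.57, limma adjusted p = 0.0206), with 3 of 5 vehicle arrays well above background, and the call was lost without vehicle mouse 1 (limma adjusted p = 0.0587). Hpn, the serine protease hepsin, rose 4.24-fold without overlap (limma adjusted p = 0.00232), Ttr, transthyretin, rose 2.17-fold (limma adjusted p = 0.0135) and Cps1 by 0.62 (limma adjusted p = 0.0466). Without vehicle mouse 1, 2 genes of the list rose. The liver genes Apoa1, Ahsg, Hpx and Fgb were too dim to be tested, and the list mean lay between -2.24 and -1.73 in vehicle mice and between -1.90 and -1.43 in filgotinib mice.

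Of 27 genes of xenobiotic and steroid metabolism 9 rose (33.3%, against 6.77% of all genes) and 0 fell, with a median of 0.36. Ces1d, a carboxylesterase, rose 4.49-fold (limma adjusted p = 0.0101), the glutathione transferase Gsta3 3.66-fold (limma adjusted p = 0.0181) and Ces1f 2.88-fold (limma adjusted p = 0.0348). Gsta3 read -2.67, -1.06, -0.15, -0.72 and 0.07 in vehicle mice and 0.51, 1.94, 1.22, 0.23 and 0.92 in filgotinib mice. The list mean separated the groups, at 2.24 to 2.58 and 2.60 to 3.05, and lay between 2.63 and 2.91 in water mice. Without filgotinib mouse 5, 5 genes rose, and with slide as a fixed block 1 did. The Ces1f call was lost in 7 of the 10 fits that left out a mouse.

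Of 27 genes of fatty acid oxidation and ketone formation 3 rose (11.1%, against 6.77% of all genes). The acyl-CoA synthetase Slc27a2 led at 2.54-fold (limma adjusted p = 0.0164). Only 1 gene of the list rose without vehicle mouse 1, 4 or 5 or filgotinib mouse 5. None of 28 cholesterol and fatty acid synthesis genes was called by limma (4 at an unadjusted p under 0.05) and none of 17 circadian clock genes (6 at an unadjusted p under 0.05). Among the clock genes Dbp changed by -1.25 ± 0.44 and did not pass (limma adjusted p = 0.0786). Of 24 unfolded protein response genes Atf4 rose by 0.36 ± 0.08 (limma adjusted p = 0.0119) without overlap and Dnajb9 by 0.46 (limma adjusted p = 0.0458), the latter call lost in 8 of the 10 fits that left out a mouse. These 2 rises were 8.33% of the list, near the 6.77% of all genes called higher. Of 19 immediate early and heat shock genes Ier3 alone fell (5.26%, near the 4.53% of all genes called lower). It fell by 0.74 (limma adjusted p = 0.0207), a call lost without vehicle mouse 5 or filgotinib mouse 5. None of 6 red blood cell genes was called by limma, with 0 at an unadjusted p under 0.05. Of 16 squamous epithelium markers Krt16 and Lor rose (12.5%) and Krt1 fell (6.25%), against 6.77% and 4.53% of all genes, each by less than 2-fold. The Lor and Krt1 calls were lost in 7 and 8 of the 10 fits that left out a mouse.

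**Figure D5:**
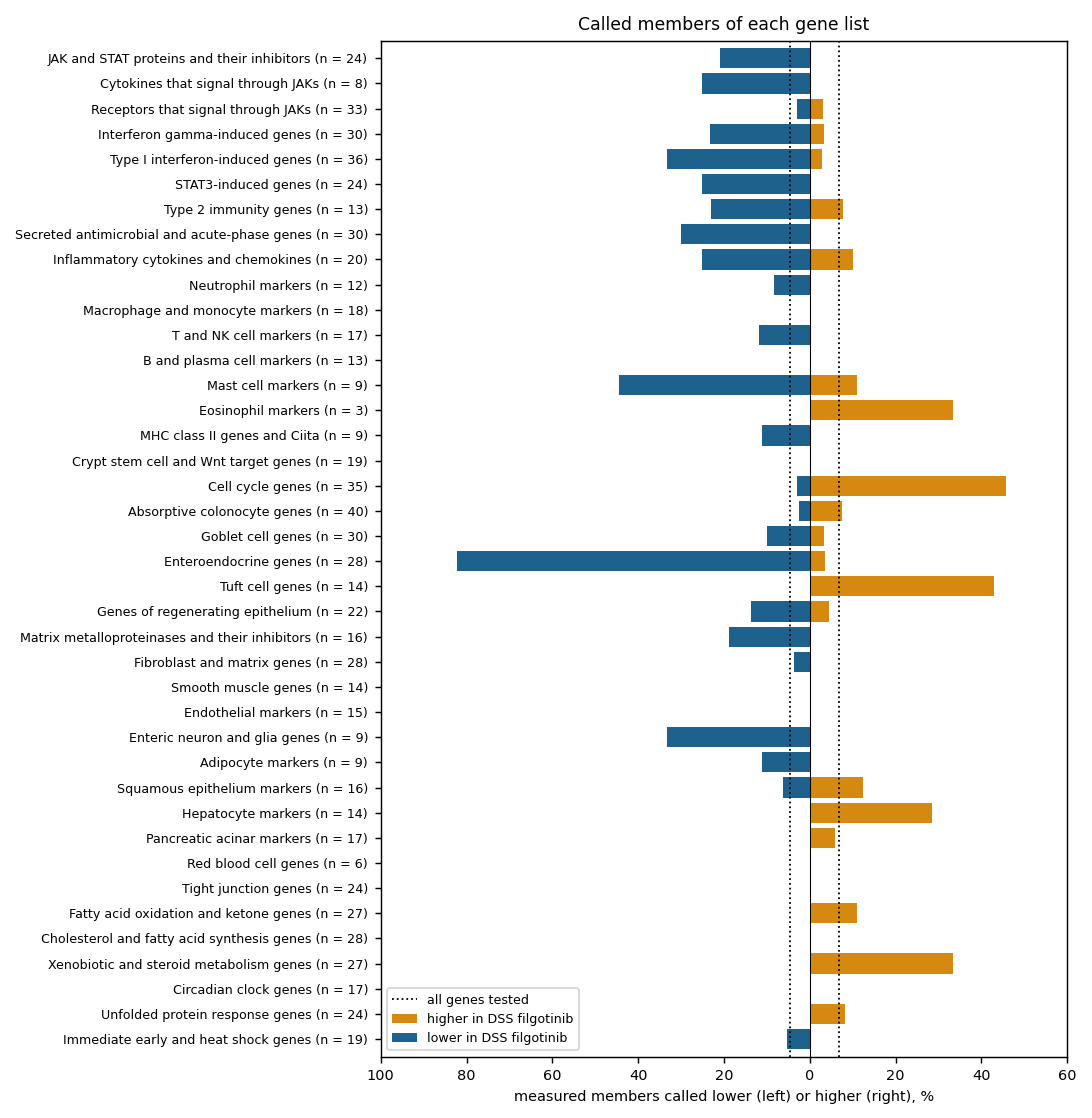
Share of the measured members of each of 40 gene lists called higher (right, orange) or lower (left, blue) with filgotinib at adjusted p under 0.05, with n measured in brackets; dotted lines mark the shares over all genes tested, 6.77% higher and 4.53% lower. Enteroendocrine genes (23 of 28 lower) and cell cycle genes (16 of 35 higher) lie farthest past these lines on either side.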

How the data were processed

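The deposited scanner files hold the intensity of each spot, background-subtracted and detrended by Agilent Feature Extraction 11.5.1.1 per the file headers, with no adjustment between arrays. The authors' deposited table holds log2 values of 32349 probes (column medians 8.84 to 8.86); its scaling between arrays is not given in the sources used here, and the submitters' processing notes also name limma. Each array's 75th percentile was subtracted here from the log2 processed signal. Control spots and 101 probes marked as outliers on an array were left out, which left 56504 probes, with 0 saturated. Probes were kept where 5 or more of the 15 arrays exceeded background by the scanner flag, and the brightest one represented its gene, named through RefSeq (GRCm38.p6, names only; probe positions are mm9, per the file headers). A gene measurable in 1 group alone could pass this filter, as Cxcl5, Il1rl1, Mmp10 and Mmp13 did mainly through vehicle arrays. Mcpt2 passed it without any filgotinib array. For such genes a count of falls is partly set by the filter. The 3 groups were fitted with limma 3.58.1 in R 4.3.3 (lmFit, eBayes, two-sided, Benjamini-Hochberg over 22012 genes). The code of the fit was checked on simulated data with independent noise and no slide effect. That check cannot address the effect of slide or of single mice. With 5 arrays a group, their number limits the precision.

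The members and gene lists were chosen with earlier results of these data known. Genes were named by rule: the 12 largest falls and rises without overlap, the 4 largest bounds each way, up to 3 called members of each list (the 2 largest changes where none was called) and a fixed set; others complete a count or were singled out after their values were seen. Some genes counted in the lists are not reported here by name. Of the 967 called genes with several probes, 78.4% had all probes on the same side. A value with ± is the fit's standard error. Alternatives covered scaling, background correction, the deposited values, filters, probe choice, weights, slide, scan day, the replicate number and each DSS mouse left out.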

Additional observations from a re-analysis of the deposited data

Results flagged for a closer look

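In 17 of 360 sets of 5 mice (140 named genes and 40 list means in the DSS groups), 1 mouse was separated from the other 4 by more than 0.71 of the group's range. Chance marks about 1 in 20 such sets, and 4.72% were marked here. Values are log2 relative to the array's 75th percentile.

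Filgotinib mouse 5 was low for Gbp7 (-2.74, others -1.78 to -1.43), Mx2 (-4.85, others -2.67 to -2.12), the mean of type I interferon-induced genes (0.091, others 0.96 to 1.16) and the mean of immediate early and heat shock genes (1.47, others 2.03 to 2.17). Filgotinib mouse 2 was high for Il11 (-1.76, others -4.02 to -3.67), and filgotinib mouse 4 was high for Adgrf1 (-0.51, others -1.93 to -1.58).

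Vehicle mouse 2 was low for Smoc2 (-4.13, others -1.49 to -1.05), Mmp13 (-3.88, others -1.56 to -0.90), Socs1 (-0.46, others -0.20 to -0.15) and the mean of STAT3-induced genes (1.44, others 1.82 to 1.97). Vehicle mouse 3 was low for Ifnlr1 (2.04, others 2.35 to 2.46), Jak2 (1.74, others 1.96 to 2.04) and Atf4 (5.61, others 5.69 to 5.72), and high for the mean of neutrophil markers (-0.36, others -1.31 to -1.04). Vehicle mouse 1 was high for Ghrl (0.90, others 0.05 to 0.26) and Fap (1.08, others 0.48 to 0.64). Vehicle mouse 4 was high for Gm5886 (-4.02, others -5.34 to -5.24).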

How the results depend on the processing

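Of the alternatives to the 1491 higher and 997 lower calls, these moved a count by more than 1.5 times: centring on the array median left 545 lower, no filter on background gave 693 and 536 (37016 genes tested), the 10 DSS arrays alone gave 754 and 522, slide as a fixed block gave 234 and 203, and the replicate block gave 930 higher (678 lower). The added fits gave 2 and 1 on the shared slide and 142 and 163 on the first scan day, with 5 and 7 arrays. Leaving out 1 mouse gave 790 to 1834 higher and 526 to 1217 lower. The replicate numbers do not pair the mice: deviations of same-numbered mice correlated at 0.11, -0.52, -0.07, 0.12 and -0.44. None of 140 named genes reversed a called direction. Of the 90 called, 67 lost their call with slide as a fixed block, 87 on the shared slide, 72 on the first scan day, 23 with no filter, 18 with the replicate block, 0 with slide as a random block and 27 without some mouse; H2bc23 kept its call in all 28 alternatives and Mcpt2 in the 26 that tested it. The median of mast cell markers, -0.65, was 0.10 over the 5 well above background on all 10 DSS arrays, a filter that leaves out Mcpt2. Signal over background limits the genes given as bounds.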

Other observations

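Some gene families outside the lists were examined after their values were seen, so that their counts are descriptions. Over all genes tested, 6.77% were called higher and 4.53% lower. Of 44 measured histone genes of the clustered families (H1f1 to H1f6 and the H2ac, H2bc, H3c and H4c genes) 33 rose and 0 fell, with a median of 0.56 and 0.70 within the slide that held both groups. H3c8 rose 2.83-fold and H2bc7 2.20-fold, both without overlap (limma adjusted p = 0.00275 and 0.00396). Of 21 centromere protein genes 7 rose and 0 fell, and of 36 kinesin genes 10 rose and 4 fell. Similar histone copies may share probes, which was not tested.

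Glutathione transferase genes rose in 6 of 21 cases, carboxylesterase genes in 4 of 11, UDP-glucuronosyltransferase genes in 3 of 8 and the Bex and Tceal genes in 5 of 10, and none of these families had a fall. Of 78 ribosomal protein genes 12 rose and 0 fell. Their shift was small and broad, with 77 fitted changes above 0 and a median of 0.23. Of 27 collagen genes 24 had a fitted change below 0, with a median of -1.08, and 1 fell. Further hormones of endocrine cells fell: Ppy, pancreatic polypeptide, by 1.88 and Iapp, amylin, by 1.60 (limma adjusted p = 0.000348 and 0.00137), both without overlap. Acod1, which makes the antimicrobial metabolite itaconate, the activin subunit Inhba, and the chemokine receptor Ccr7 also fell, by 1.85, 3.15 and 1.28 (limma adjusted p = 0.0421, 0.0128 and 0.039). Of 5 filgotinib arrays, 1 was well above background for Acod1, 1 for Inhba and 3 for Ccr7, so the sizes rest partly on dim values.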
